A study of Mus musculus with 16 samples.

Results

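Quadriceps muscle from mice with C26 tumour cells placed in the spleen was compared with quadriceps from sham-operated mice, over all 13320 genes of the count table. The 8 samples were chosen by their tumour label, 4 of splenic C26 and 4 of Sham, out of 16 in the study. All were male CD2F1 mice that were 8 weeks old, and C26 is a mouse colon carcinoma line that wastes the muscle of its host. Splenic C26 mice received an injection of the cells into the spleen, which is meant to mimic spread to the liver. Sham mice underwent surgery with saline. The other 8 samples, with C26 cells under the skin (Subcutaneous C26) and their Control group, entered the fit and serve here only to test whether an effect differed between routes. The labels number no replicates and do not state that each library is another animal, so the p-values reflect only the spread among these samples, possibly technical. Replicate numbers only name the libraries. The labels give no tumour burden, muscle weight or food intake.

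Muscle mass depends on the balance of protein made and protein broken down. In cachexia, the wasting that accompanies many cancers, cytokines of the IL-6 family, glucocorticoids and activins act on the fibre, and ubiquitin ligases such as atrogin-1 and MuRF1 mark muscle proteins for the proteasome. A bulk muscle library also holds RNA of fibroblasts, vessel cells, nerve sheath cells, fat cells and blood.

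Levels are CPM, read counts put on a common library size after TMM scaling. Changes are log2 fold changes of splenic C26 over sham ± SE from edgeR's quasi-likelihood test. Adjusted p is Benjamini-Hochberg adjusted over all genes, with the threshold at 0.05. Total counts were 25.9 to 34.9 M per library. On the first principal component of the 8 libraries, which held 72.5% of the variance, sham lay between -62.3 and -59.1, splenic C26 replicates 2, 3 and 4 between 60.7 and 96.4, and splenic C26 replicate 1 at -8.53. For the genes that changed at least 2-fold without a given library, the median change in that library was 34.9% of the change in the other 3 for splenic C26 replicate 1, against 97.8%, 121% and 126% for replicates 2, 3 and 4. In replicate 1, 83.8% of the genes that were higher without it still lay above all 4 sham libraries and 69.8% of the lower genes below them. Of the 10 muscle fibre markers none passed the test (0 higher and 0 lower; 2 lower in a fit of these 8 libraries alone), their mean level over sham was -0.20 to 0.14 log2 in the splenic C26 libraries, and they summed to between 123723 and 203431 CPM in the 8 libraries. From bulk tissue, fewer cells of a type and less RNA per cell cannot be told apart.

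3 libraries stood apart in markers of other cells. The liver cell gene Alb stood at 76.2, 0.0722, 0.611 and 0.0388 CPM in splenic C26 replicates 1 to 4 and at 0.239, 2.25, 0.375 and 0.24 CPM in sham replicates 1 to 4, so that only splenic C26 replicate 1 was high, and its change of 4.61 ± 1.62 (adjusted p = 0.0269) became -1.83 (adjusted p = 0.21) without that library. 8 of 10 hepatocyte markers passed as higher, 1 did without splenic C26 replicate 1, 5 did without sham replicate 1, 3 or 4, and without splenic C26 replicates 1 and 3 edgeR called 0. Their summed level, 16.2, 222, 71.6 and 61.4 CPM in sham and 219.8, 83.3, 119 and 316 CPM in splenic C26, was mostly that of Cyp2e1 in every library but splenic C26 replicate 1; Cyp2e1 did not pass (0.72, adjusted p = 0.322) but did without sham replicate 2 (1.63, adjusted p = 0.0257), while Apob was at 0 in splenic C26 replicates 2 to 4. The neutrophil granule gene S100a8 stood at 0.606, 1.19, 35.5 and 7.34 CPM in splenic C26 against 0.273, 0.267, 0.161 and 0.171 CPM in sham, highest in replicate 3. 10 of 11 neutrophil markers passed as higher, 4 without replicate 3, and their summed level was 1.57, 2.16, 1.77 and 2.19 CPM in sham and 6.86, 5.53, 189 and 20.1 CPM in splenic C26. In sham replicate 2 the fat cell gene Plin1 was high, at 167 CPM against 8.92 to 48.9 CPM in the other sham libraries and 15.5, 12.3, 5.45 and 4.97 CPM in splenic C26. The deposited table lists only genes with at least 0.5 CPM in at least 4 of the 16 libraries. A gene near 0 in sham was therefore listed only through other groups, which may include the tumour-free Control group. Where splenic C26 was such a group, a rise over sham was fixed in advance. Of the 10 hepatocyte markers 9 passed as lower in subcutaneous C26 against Control, with a median change of -5.56. No lymphoid marker was listed, and such cells were not analysed here.

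**Figure D1:**
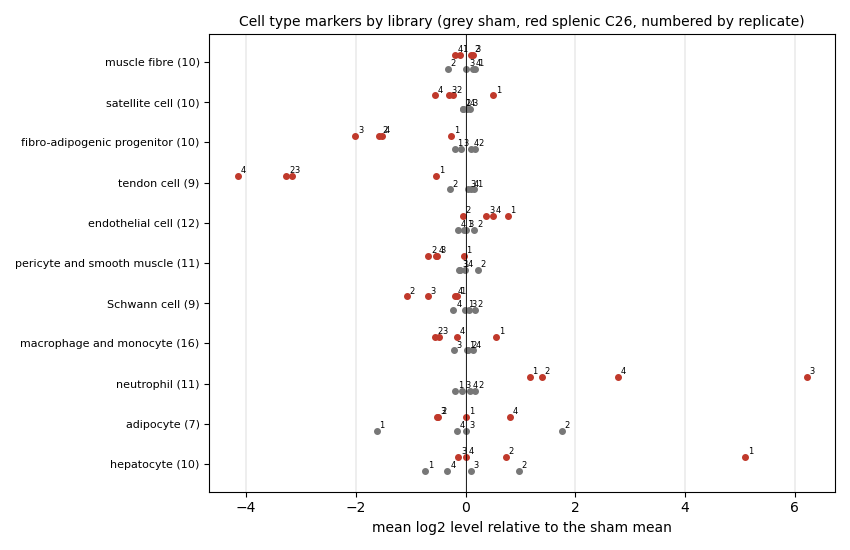
Mean log2 level of 11 lists of cell type markers in each library relative to the sham mean, with sham in grey and splenic C26 in colour, numbered by replicate. Hepatocyte markers stand apart in splenic C26 replicate 1 and neutrophil markers in replicate 3.

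Over all genes, 3745 (28.1%) passed as higher and 3186 (23.9%) as lower in splenic C26, and 2814 (21.1%) lay higher and 2806 (21.1%) lower without overlap of the groups. Counts of genes that rose or fell in a gene list are to be read beside the 28.1% and 23.9%. The changes reached at least 2-fold in 1565 higher and 1706 lower genes and at least 8-fold in 204 and 90. Of the calls 54.0% were higher. With upper-quartile scaling the share was 38.5%, and the median change of all genes went from -0.03 to -0.24. Without splenic C26 replicates 1 and 3 the counts were 3857 higher and 3592 lower.

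**Figure D2:**
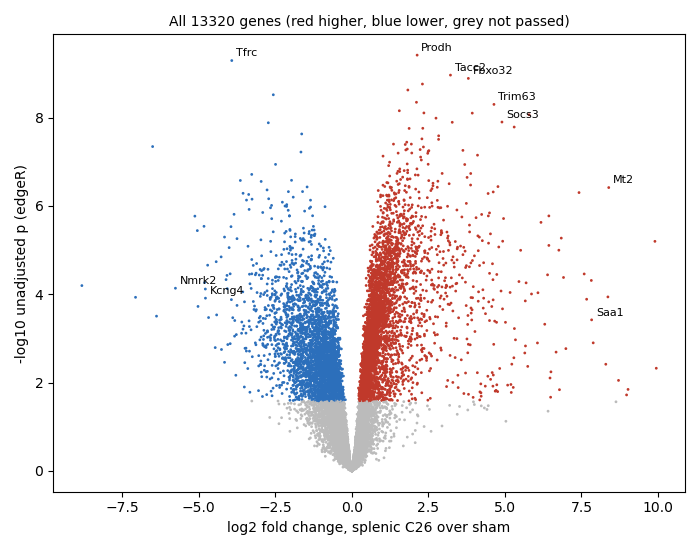
Each point is 1 of 13320 genes, with the log2 fold change of splenic C26 over sham on the x axis and -log10 of the unadjusted p on the y axis; coloured points passed an adjusted p under 0.05. The 3745 higher genes lie to the right and the 3186 lower genes to the left, with Mt2 at 8.39 and Tfrc at -3.92.

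The genes with the smallest p-values combined atrophy ligases with genes of proline breakdown, iron uptake and the cytoskeleton. Tfrc, which encodes the transferrin receptor that takes up iron (chr16:32608920-32632794, mm10), stood at 133, 140.3, 133 and 147 CPM in sham replicates 1 to 4 and at 12.1, 6.25, 13.4 and 4.93 CPM in splenic C26 replicates 1 to 4. All 4 tumour libraries, replicate 1 included, lay far below sham, and the gene fell by 3.92 ± 0.29 on the log2 scale (adjusted p = 3.41e-06). Prodh, the mitochondrial proline dehydrogenase (chr16:18060357-18090203), rose from 7.45, 8.68, 6.16 and 7.3 CPM to 26.7, 29.1, 34.8 and 39.5 CPM (log2 fold change 2.136 ± 0.15, adjusted p = 3.41e-06). Here too splenic C26 replicate 1 was close to the other 3. Tacc2, a centrosome and microtubule protein gene, rose from 857, 679, 713 and 958 CPM to 4532, 7953, 9234 and 8237 CPM (log2 fold change 3.22 ± 0.25, adjusted p = 4.32e-06). Ube4a, a ubiquitin chain elongation factor, rose by 2.114 ± 0.18. Pkp4, a junction plaque protein, rose by 1.55 ± 0.14 and the splicing factor relative Zrsr1 by 1.83 ± 0.15. Zbtb16, a glucocorticoid-induced zinc finger factor, rose by 2.31 ± 0.19. Mkl1, a coactivator of serum response factor, was the other gene of the 10 with the smallest p that fell from 53.7, 46.3, 45.6 and 43.17 CPM to 12.4, 7.15, 7 and 5.32 CPM (log2 fold change -2.56 ± 0.21, adjusted p = 5.79e-06). The ligase genes Fbxo32 (atrogin-1) and Trim63 (MuRF1) belonged to the same 10, at 3604, 7029.8, 4179 and 6130.0 CPM and 2293, 4751, 7171 and 8341 CPM in splenic C26 against 377, 318, 389.6 and 412 CPM and 242, 214, 236 and 209 CPM in sham.

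Among genes at 1 CPM or more on average whose groups did not overlap, the lowest changes included genes of NAD metabolism, ion channels, mitochondria and DNA demethylation. Nmrk2, a nicotinamide riboside kinase of muscle, fell from 213, 258, 328 and 380.0 CPM to 5.81, 2.02, 12.4 and 1.75 CPM (log2 fold change -5.75 ± 1.07, adjusted p = 0.000734). Kcng4, a potassium channel subunit, fell from 105, 89.4, 107 and 132 CPM to 9.96, 1.88, 2.63 and 1.16 CPM, and Gdap1, a mitochondrial fission factor, from 18.8, 20.9, 26.2 and 24 CPM to 2.43, 0.217, 0.376 and 0.272 CPM. All tumour libraries lay below every sham library in these 3 genes, and replicate 1 kept the most transcript of Kcng4 and Gdap1. Tet1, a DNA demethylase, changed by -4.15 ± 0.61 and the adhesion protein gene Mdga1 by -4.10 ± 0.73. The water channel gene Aqp4 fell from 48.8, 37.7, 42.9 and 31.2 CPM to 6.7, 0.578, 1.46 and 0.0776 CPM, Nrep, a neuronal regeneration protein gene, from 140.2, 116, 179 and 151 CPM to 13.9, 1.48, 1.5 and 0.893 CPM, and Rmi2, a partner of the Bloom helicase, from 5.71, 3.79, 5.73 and 4.53 CPM to 0.479, 0.0361, 0.141 and 0 CPM. Ankrd34a, an ankyrin repeat gene, changed by -5.04 ± 0.72. Otop1, a proton channel gene, stood at 0.581, 20.5, 8.76 and 1.51 CPM in sham and 0.383, 0.361, 0.517 and 0.388 CPM in splenic C26, highest in sham replicate 2, the library in which the fat cell gene Plin1 was high.

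By the same criteria the 4 highest changes were those of genes of neutrophil granules. Ngp stood at 0, 0, 0 and 0.0343 CPM in sham and 0.0957, 0.325, 45.8 and 1.05 CPM in splenic C26. Mpo, myeloperoxidase, stood at 0.0957, 0.0722, 8.51 and 0.155 CPM and Ltf, lactoferrin, at 0.0319, 0.0361, 8.13 and 0.349 CPM in splenic C26, and both were at 0 in all sham libraries. Lcn2, lipocalin 2, which is also an acute-phase gene of other cells, rose from 1.26, 0.682, 0.643 and 0.789 CPM to 15.5, 262, 2318 and 620.3 CPM (log2 fold change 9.90 ± 1.47, adjusted p = 0.0002). All 4 genes were highest in splenic C26 replicate 3, where the other neutrophil markers were high as well. The call of Ngp (adjusted p = 0.013) was lost without splenic C26 replicate 3 (adjusted p = 0.136), that of Mpo (adjusted p = 0.0308) lost without sham replicate 1, 2, 3 or 4 or splenic C26 replicate 3 (adjusted p 0.0532 to 0.278), and that of Ltf (adjusted p = 0.0388) lost without sham replicate 1, 2, 3 or 4 or splenic C26 replicate 3 (adjusted p 0.0647 to 0.291). The other 6 were acute-phase genes, the metallothionein gene Mt2 and an enzyme of retinoid metabolism. Saa1 rose from 0.0683, 0.207, 0.0536 and 0.0343 CPM to 1.98, 8.88, 42.6 and 34.7 CPM, Saa2 from 0, 0.0296, 0.0536 and 0 CPM to 0.479, 1.77, 13.7 and 9.78 CPM and Saa3 from 0.0683, 0.0296, 0 and 0.137 CPM to 0.255, 2.27, 22.5 and 23.1 CPM. Itih4 rose from 0.205, 0.504, 0.134 and 0.343 CPM to 9.13, 47.7, 18.2 and 155 CPM, and Aldh8a1, a retinal dehydrogenase, from 0, 0.0593, 0 and 0 CPM to 0.511, 0.758, 6.91 and 17.7 CPM. Saa1 and Saa2 were highest in splenic C26 replicate 3 and Saa3, Itih4 and Aldh8a1 in replicate 4, where the liver gene Alb was at 0.611 and 0.0388 CPM, and reads of Saa genes may be shared among near-identical copies. Ngp, Mpo, Ltf, Saa1, Saa2, Saa3 and Aldh8a1 were near 0 in sham and so were listed only through other groups. Aldh8a1 and Saa1 exceeded 0.5 CPM in all 4 splenic C26 libraries, which is enough to be listed. The rise of such genes, and their place among the highest changes, may thus have been fixed in advance.

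**Figure D3:**
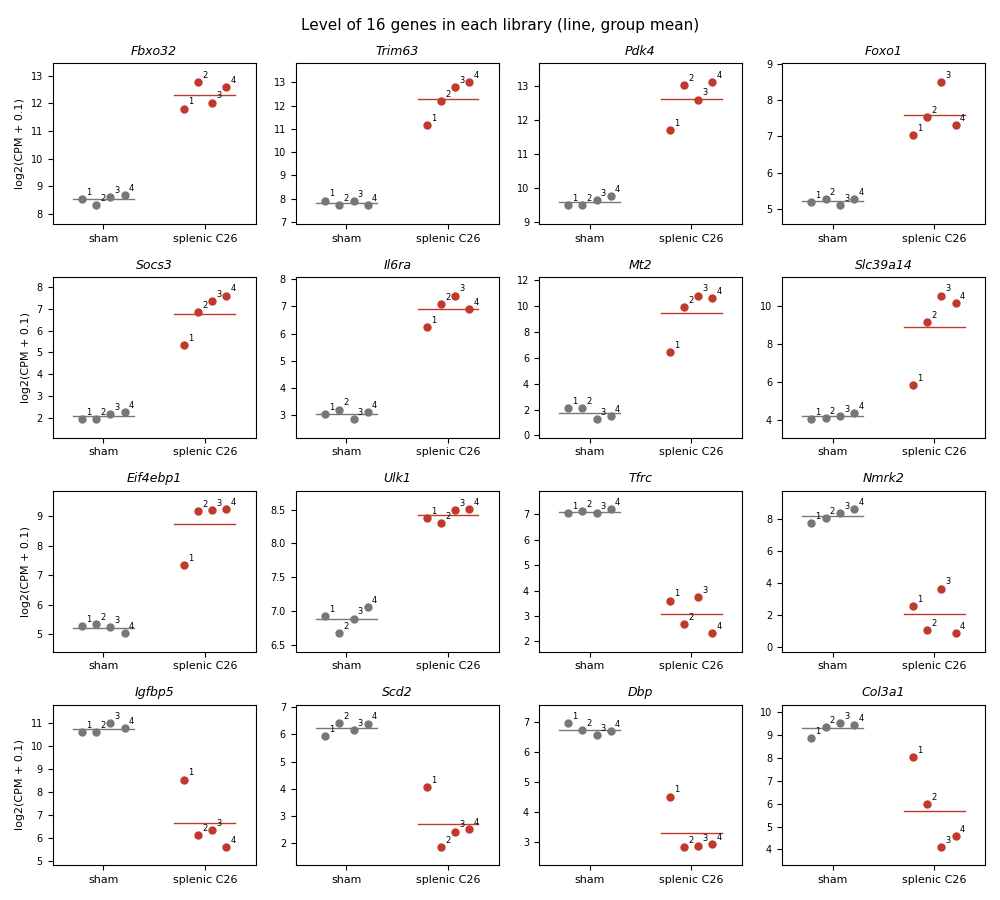
Level of 16 named genes in each of the 8 libraries, as log2(CPM + 0.1) on the y axis, with sham as grey and splenic C26 as coloured points numbered by replicate. Tfrc, Nmrk2 and Igfbp5 lie below sham in all 4 splenic C26 libraries, Mt2, Socs3 and Fbxo32 above it, and replicate 1 is the tumour library nearest to the sham mean in 13 of 16 panels.

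The most abundant transcripts of both groups, which encode proteins of contraction and its energy supply, did not pass the test, while genes of the calcium store and the Z-disc changed. Myh4, the fast 2B myosin heavy chain and the most abundant gene of both groups, stood at 60617, 42121, 58705 and 60263 CPM in sham and 72604, 64535, 93107 and 68736 CPM in splenic C26 (log2 fold change 0.43 ± 0.34, adjusted p = 0.291). Every tumour value exceeded every sham value, yet the difference did not pass. Neither did the calcium pump gene Atp2a1 (0.25 ± 0.25), actin Acta1 (-0.53 ± 0.30), titin Ttn (0.28 ± 0.29), creatine kinase Ckm (-0.12 ± 0.28), fast troponin T Tnnt3 (0.03 ± 0.22), or the slower myosins Myh2 (-0.14 ± 0.36) and Myh7 (-0.06 ± 1.08). In a fit of the 8 compared libraries alone, Acta1 passed as lower (-0.51, adjusted p = 0.0339). Of 14 fast-fibre genes 2 rose and 5 fell, beside 28.1% and 23.9% of all genes. Casq1, which stores calcium in the reticulum of fast fibres, fell from 3161, 2983, 3781 and 3913 CPM to 819.9, 153, 222 and 69.6 CPM (log2 fold change -3.45 ± 0.90, adjusted p = 0.00599). The myosin light chain gene Myl1 fell by 1.37 ± 0.41 on the log2 scale, and Mylk2, the myosin light chain kinase of skeletal muscle, rose by 1.17 ± 0.18. Myh1, the fast 2X myosin, stood at 4890.1, 4665, 4669 and 5713 CPM in sham and 4287, 14219, 7578 and 11391 CPM in splenic C26 (log2 fold change 0.91 ± 0.28, adjusted p = 0.0129), a call lost without splenic C26 replicate 2 (adjusted p = 0.0556). Without splenic C26 replicate 2, 1 fast-fibre gene passed as higher and 2 as lower, and without splenic C26 replicate 4 3 as lower.

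Of 33 sarcomere scaffold genes 12 rose and 12 fell, beside 28.1% and 23.9% of all genes. The strain-responsive repeat proteins rose most. Ankrd1 stood at 6.8, 4.33, 5.28 and 3.15 CPM in sham and 6.03, 39.7, 637 and 462 CPM in splenic C26 (log2 fold change 5.87 ± 1.12, adjusted p = 0.000886). Ankrd2 stood at 57.5, 42.5, 30.2 and 41.6 CPM and 28.1, 422, 1056 and 1049 CPM (log2 fold change 3.89 ± 0.76, adjusted p = 0.001). Replicate 1 lay within the sham range for Ankrd1 and below it for Ankrd2, and the other 3 libraries lay above sham. The filamin gene Flnc rose without overlap from 799, 677, 688 and 977 CPM to 1765, 7435, 7518 and 11102 CPM, by 3.15 ± 0.46, and Xirp1, an actin-binding repair protein, by 2.97 ± 0.62. Synpo2l and Lmod3, which organise actin filaments, fell by 1.15 ± 0.26 and 1.19 ± 0.26 on the log2 scale. The median of the list was 0.28, against -0.03 over all genes.

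Genes that turn the nerve signal into contraction fell more often than they rose. Of 21 excitation-contraction genes 1 rose and 11 fell, beside 28.1% and 23.9% of all genes, with a median of -0.65. Without splenic C26 replicate 4, 7 fell. Asph, whose products include the reticulum protein junctin, fell from 262, 243, 282 and 271 CPM to 143, 84.8, 115 and 83.8 CPM (log2 fold change -1.31 ± 0.21, adjusted p = 0.000283). Jph2, which holds the tubule and reticulum membranes together, fell from 956, 779, 1019 and 1113 CPM to 424, 242, 386 and 104 CPM (log2 fold change -1.74 ± 0.51, adjusted p = 0.0115). Stac3, a partner of the calcium channel, fell by 1.63 ± 0.43. The channel genes themselves, Ryr1 (0.49 ± 0.26) and Cacna1s (-0.53 ± 0.30), did not pass, although Cacna1s passed as lower in the fit of 8 libraries (adjusted p = 0.0403), and the channel subunit gene Cacng1 rose by 1.11 ± 0.19. Sarcolipin, Sln, had values of 1.33, 0.8, 0.911 and 0.857 CPM and 0.351, 1.7, 4.61 and 1.79 CPM and did not pass (adjusted p = 0.253). Of 22 channel and sodium pump genes 7 fell and 1 rose, beside 23.9% and 28.1% of all genes. Without splenic C26 replicate 1, 12 fell and 3 rose. With upper-quartile scaling 13 fell. The sodium pump subunit gene Atp1b1 fell by 1.08 ± 0.29. The chloride channel gene Clcn1, which sets the resting excitability of the fibre, fell from 229.6, 202, 214 and 232 CPM to 149.7, 51, 34.6 and 13.4 CPM (log2 fold change -1.82 ± 0.58, adjusted p = 0.017), a call that was lost without splenic C26 replicate 3 (adjusted p = 0.0509). Kcnj2 did not pass (0.27 ± 0.18).

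Of 20 junction and denervation genes 6 rose and 6 fell, shares close to the 28.1% and 23.9% of all genes. Runx1, a factor that rises on loss of nerve supply, stood at 3.59, 3.2, 3.13 and 2.95 CPM in sham and 6.13, 9.46, 67.6 and 25.1 CPM in splenic C26 (log2 fold change 3.07 ± 0.57, adjusted p = 0.000719). The junction kinase gene Musk rose from 18, 14.8, 18.9 and 25.5 CPM to 27.7, 55.5, 188 and 128 CPM (log2 fold change 2.37 ± 0.46, adjusted p = 0.00102). Gadd45a, a stress gene of denervated fibres, rose from 15.1, 11.9, 11.2 and 9.6 CPM to 36.9, 127, 52.3 and 62.1 CPM (log2 fold change 2.54 ± 0.39, adjusted p = 0.000242). Runx1 and Musk were highest in splenic C26 replicate 3, Gadd45a in replicate 2. The acetylcholine receptor gene Chrna1 did not pass (-0.17 ± 0.26), while the adult receptor subunit gene Chrne fell by 1.59 ± 0.49. Chrnb1 rose by 0.60 ± 0.16.

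Of 24 myogenic factors 6 rose and 6 fell, shares close to the 28.1% and 23.9% of all genes. The split was 8 and 2 without splenic C26 replicate 4 and 6 and 10 without replicate 1. Myogenin, Myog, stood at 5.74, 4.62, 7.34 and 8.13 CPM in sham and 15.5, 11.9, 166 and 25.9 CPM in splenic C26 (log2 fold change 3.08 ± 0.70, adjusted p = 0.00264), and without replicate 3 its change was 1.46. Mef2c, a factor that maintains the differentiated fibre, fell in all 4 libraries from 747, 508, 675 and 614 CPM to 285, 101, 53.7 and 41.4 CPM (log2 fold change -2.40 ± 0.63, adjusted p = 0.00589). Myod1 (-0.31 ± 0.62), Myf6 (0.57 ± 0.29) and the satellite cell factor Pax7 (-0.57 ± 0.43) did not pass. Without splenic C26 replicates 1 and 3 Myod1 passed as lower (-2.142, adjusted p = 0.0133). Without splenic C26 replicate 4 Myf6 passed as higher (0.83, adjusted p = 0.00905), and without splenic C26 replicate 1 Pax7 passed as lower (-1.21, adjusted p = 0.0125).

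Glycolysis genes fell more often than they rose, and glycogen genes the reverse. Of 21 glycolysis genes 8 fell and 3 rose, beside 23.9% and 28.1% of all genes. The median was -0.55, and 1 rose without splenic C26 replicates 1 and 3. Pkm, the last step to pyruvate, fell from 3202, 2741, 3200.4 and 3506 CPM to 1864, 1272, 1645 and 1258 CPM (log2 fold change -1.07 ± 0.28, adjusted p = 0.00589). Tpi1 fell by 1.32 ± 0.34, and the lactate dehydrogenase gene Ldha by 1.10 ± 0.32. The rate-limiting Pfkm did not pass (-0.26 ± 0.28). Hk2, which traps glucose in the cell, stood at 382, 340.0, 3013 and 1092 CPM in splenic C26 against 432, 371, 352 and 394 CPM in sham (log2 fold change 1.64 ± 0.53, adjusted p = 0.018), and without replicate 3 did not pass (0.64, adjusted p = 0.155). Of 24 glycogen and glucose transport genes 10 rose and 2 fell, and without splenic C26 replicate 1, 5 fell; with upper-quartile scaling 6 rose. Ugp2, which makes the donor for glycogen synthesis, rose from 654, 523, 579 and 543 CPM to 1155, 3482, 1933 and 2126 CPM (log2 fold change 1.92 ± 0.32, adjusted p = 0.000361). The glycogen targeting subunit gene Ppp1r3c rose by 1.09 ± 0.34. Slc2a4, the insulin-responsive glucose transporter, was at 0.43 ± 0.17 with an adjusted p of 0.0417, a call lost without sham replicate 1, 2, 3 or 4 or splenic C26 replicate 3 or 4 (adjusted p 0.0552 to 0.138). Pdk4, a kinase that inhibits pyruvate dehydrogenase, rose from 711, 712, 801 and 859 CPM to 3368, 8382, 6256 and 8987 CPM (log2 fold change 3.13 ± 0.46, adjusted p = 0.000181). Its opponent Pdp1 fell by 1.71 ± 0.45.

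Genes of the mitochondrion changed unevenly. Of 78 nuclear respiratory chain genes 22 fell and 2 rose, beside 23.9% and 28.1% of all genes. The count of falls was 11 without splenic C26 replicate 4 and 14 without sham replicate 1 or 4. In the fit of 8 libraries it was 40, and with upper-quartile scaling 52. Without overlap 48 of the 78 lay below sham, beside 21.1% of all genes. The median of the list was -0.37. Cycs, cytochrome c, fell from 242, 265, 267 and 279 CPM to 126, 131, 169 and 114 CPM (log2 fold change -0.96 ± 0.23, adjusted p = 0.00328). Ndufc2, a complex I subunit, fell by 0.75 ± 0.17. Citrate synthase, Cs, was lower in every tumour library (log2 fold change -0.62 ± 0.23, adjusted p = 0.0305), a call lost without sham replicate 1, 3 or 4 or splenic C26 replicate 3 or 4 (adjusted p 0.0547 to 0.0746). Among regulators, the receptors Esrra and Esrrg fell, Esrra from 75.6, 72.9, 72.6 and 82.2 CPM to 39.3, 25.5, 33.5 and 15.8 CPM (log2 fold change -1.41 ± 0.32, adjusted p = 0.00226). Perm1 fell by 1.46 ± 0.51 (adjusted p = 0.0273), a call lost without sham replicate 1 or splenic C26 replicate 2 or 4 (adjusted p 0.0534 to 0.0733). Ppargc1a, their coactivator, stood at 47.7, 54.4, 638 and 59.9 CPM in splenic C26 against 55.7, 58.7, 53.5 and 49.3 CPM in sham, so that 1 library was high and 3 lay near the sham level. Its call (adjusted p = 0.0329) was lost without sham replicate 1, 2, 3 or 4 or splenic C26 replicate 3 (adjusted p 0.0583 to 0.983), and without replicate 3 its change was -0.0083. The fission gene Dnm1l fell from 106, 99.5, 108 and 105 CPM to 54.3, 60.1, 57.3 and 57.5 CPM (log2 fold change -0.87 ± 0.11, adjusted p = 8.22e-05). The matrix protease subunits Clpp and Clpx rose by 1.17 ± 0.17 and 1.01 ± 0.15. Ucp3, the muscle uncoupling protein, rose from 155, 165, 202 and 219.7 CPM to 318, 493, 1069 and 681 CPM (log2 fold change 1.79 ± 0.36, adjusted p = 0.00119).

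Of 23 fatty acid oxidation genes 8 rose and 0 fell, and of 15 fatty acid synthesis genes 10 fell and 1 rose. Over all genes 28.1% rose and 23.9% fell, so the count of oxidation genes that rose was not far from the background. With upper-quartile scaling 6 oxidation genes rose and 3 fell, and in the fit of 8 libraries 7 rose and 2 fell. Mlycd, which removes the brake on fat oxidation, rose from 57.9, 61.1, 60.1 and 59.6 CPM to 130.0, 207, 294 and 213 CPM (log2 fold change 1.82 ± 0.21, adjusted p = 4.81e-05). In the list of uptake, thioesterase and droplet genes 15 of 36 rose and 5 fell, among them the droplet lipase gene Pnpla2, higher by 1.91 ± 0.31, and the droplet coat gene Plin4 by 2.36 ± 0.21. The thioesterase genes Acot1 and Acot2, whose reads may be shared, stood at 9.67, 39.5, 43.4 and 49.3 CPM and 76.6, 153, 206 and 143 CPM in splenic C26 against 0.649, 1.3, 1.1 and 0.48 CPM and 13.4, 18.1, 13.6 and 14.5 CPM in sham. On the side of synthesis, Scd2, a desaturase, fell from 60.4, 84.8, 70.4 and 83.7 CPM to 16.7, 3.58, 5.31 and 5.63 CPM (log2 fold change -3.25 ± 0.40, adjusted p = 7.04e-05). Srebf1, the factor that drives these genes, fell from 85.3, 99.6, 86.5 and 102 CPM to 52.4, 23.5, 26 and 25.1 CPM (log2 fold change -1.55 ± 0.22, adjusted p = 0.000163). Acacb, which makes malonyl-CoA at the mitochondrion, rose by 1.74 ± 0.22. Fasn stood at 94.5, 1928, 677 and 400.0 CPM in sham and 64.5, 32.6, 72.5 and 278 CPM in splenic C26 (log2 fold change -2.79 ± 0.87, adjusted p = 0.015). Scd1 stood at 465, 4946, 1613 and 1132 CPM and 276, 33.3, 257 and 476 CPM (log2 fold change -2.97 ± 0.85, adjusted p = 0.00987). Both were highest in sham replicate 2, and the fat cell gene Plin1 was as well, at 8.92, 167, 48.9 and 30.8 CPM in sham against 15.5, 12.3, 5.45 and 4.97 CPM in splenic C26. Of the 7 fat cell markers 0 rose and 1 fell, Adipoq did not pass (-0.54 ± 0.60), and the summed level of the list was 215, 2005, 669.7 and 462 CPM in sham and 634, 546, 584 and 1235 CPM in splenic C26. Without sham replicate 2 Fasn did not pass (-1.79, adjusted p = 0.0765) and 7 genes of the list fell, without splenic C26 replicates 1 and 3 6 did, and without sham replicate 2 Plin1 lost its call (adjusted p = 0.0559). The part of fat cells in these values was not tested. Acaca did not pass (-1.02 ± 0.63). Cholesterol genes fell in 15 and rose in 5 of 26 cases, with Dhcr7, a last step of synthesis, at 9.02, 9.99, 11.3 and 10.5 CPM in sham and 3.32, 2.17, 2.49 and 1.36 CPM in splenic C26 (log2 fold change -2.12 ± 0.27, adjusted p = 8.05e-05).

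Genes that handle amino acids, nucleotides and polyamines changed in both directions. Of 21 branched-chain breakdown genes 9 rose and 1 fell (4 with upper-quartile scaling), beside 28.1% and 23.9% of all genes. Klf15, a factor that induces branched-chain breakdown genes, rose from 50.1, 45.4, 30.0 and 26.9 CPM to 112, 192, 206 and 193 CPM (log2 fold change 2.21 ± 0.32, adjusted p = 0.00017). Bcat2, the first step, rose by 0.61 ± 0.16. Glul, which makes glutamine for export, rose from 384, 466, 249 and 239 CPM to 1333, 1797, 1242 and 2196 CPM (log2 fold change 2.296 ± 0.33, adjusted p = 0.000165). The neutral amino acid transporter gene Slc7a8 stood at 50.2, 74, 385 and 205 CPM in splenic C26 against 21.6, 17.6, 13.3 and 13.1 CPM in sham, highest in replicate 3, and the cationic transporter gene Slc7a2 at 955, 761, 128 and 199 CPM against 126, 95.3, 103 and 112 CPM, highest in replicate 1. Ampd3, the red cell type of AMP deaminase, rose from 17.2, 14.5, 13.5 and 11.1 CPM to 25.6, 161, 375 and 535 CPM (log2 fold change 4.28 ± 0.80, adjusted p = 0.000768). Of 3 red blood cell markers measured 2 passed as higher, and their mean level over sham was 1.55, 1.72, 4.43 and 3.75 log2 in splenic C26 replicates 1 to 4. One of them, Slc4a1, the anion exchanger of red cells, stood at 0.102, 0.119, 0.241 and 0.206 CPM in sham and 1.15, 1.41, 17.4 and 5.67 CPM in splenic C26, a call lost without sham replicate 1, 2, 3 or 4 or splenic C26 replicate 3 (adjusted p 0.053 to 0.086). The part of red cells in the Ampd3 value was not tested. The muscle form Ampd1 fell by 1.67 ± 0.61 (adjusted p = 0.0331), a call lost without sham replicate 1, 3 or 4 or splenic C26 replicate 2, 3 or 4 (adjusted p 0.054 to 0.0805). Prkag3, the AMP kinase subunit of fast fibres, fell from 142, 116, 147 and 116 CPM to 31.5, 12.5, 7.66 and 4.27 CPM (log2 fold change -3.21 ± 0.53, adjusted p = 0.000372). Gamt, which completes creatine synthesis, fell by 3.02 ± 0.66. Of 16 polyamine genes 7 rose and 3 fell (1 without sham replicate 3), beside 28.1% and 23.9% of all genes. Sat1, which starts polyamine breakdown, was at 2.113 ± 0.41 and Odc1, which starts polyamine synthesis, at 1.30 ± 0.31. Smox, a spermine oxidase, fell by 1.52 ± 0.58, a call lost without sham replicate 3 or 4 or splenic C26 replicate 1, 2 or 4 (adjusted p 0.0695 to 0.0974), and by more without splenic C26 replicate 3 (-2.61), while Azin1 did not pass (-0.14 ± 0.25) but passed as lower without splenic C26 replicate 4 (-0.56, adjusted p = 0.0191). In the NAD list, Nampt, the rate-limiting step of the salvage route, rose by 0.49 ± 0.14, a call lost with upper-quartile scaling (0.27, adjusted p = 0.0647). Nnmt, which removes nicotinamide, fell by 1.82 ± 0.54, a call lost without sham replicate 2 (adjusted p = 0.0815), with a change of -0.91 there.

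Promoter sequences of Mt2 and Socs3 are shown because both genes rose in all 4 tumour libraries and the motif searched for was found in each. They are the 250 bases before the RefSeq transcription start (GRCm38.p6), written 5′ to 3′ on the strand of the gene, with matches in capitals.
Mt2, chr8:94172368-94172617, plus strand: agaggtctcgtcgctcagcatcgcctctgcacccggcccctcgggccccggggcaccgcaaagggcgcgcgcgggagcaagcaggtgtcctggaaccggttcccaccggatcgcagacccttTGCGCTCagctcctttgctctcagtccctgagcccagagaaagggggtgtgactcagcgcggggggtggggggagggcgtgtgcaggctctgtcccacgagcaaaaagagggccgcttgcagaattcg
Socs3, chr11:117969367-117969616, minus strand: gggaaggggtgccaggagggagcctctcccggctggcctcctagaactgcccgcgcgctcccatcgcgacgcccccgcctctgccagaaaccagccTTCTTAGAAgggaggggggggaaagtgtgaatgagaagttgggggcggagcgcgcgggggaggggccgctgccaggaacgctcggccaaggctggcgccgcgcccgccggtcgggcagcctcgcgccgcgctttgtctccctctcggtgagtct
The metal response motif TGCGCNC matched at 128 bases before the start of Mt2 and once more in the 50 searched bases after the start, which are not shown. It was held by 15.4% of 32851 promoter windows of the same length. The STAT motif TTCNNNGAA matched once in Socs3, at 154 bases before the start, and in 8.3% of windows. The windows of Dbp, Psma1 and Psmd1 did not hold the letters searched for in them (E-box CACGTG, held by 7.15%, for Dbp, and the antioxidant motif TGACNNNGC, held by 12.4%, for both proteasome genes). Both strands were searched, each window for 1 motif, and a match is a run of letters, not a measured site.

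Mt2, a metallothionein that binds zinc, stood at 4.17, 4.18, 2.28 and 2.67 CPM in sham and 87.9, 965, 1805 and 1606 CPM in splenic C26 (log2 fold change 8.39 ± 0.99, adjusted p = 5.38e-05). Mt1, with which it may share reads, stood at 9.94, 13.7, 9 and 8.61 CPM and 114, 1542, 2913 and 2496 CPM (log2 fold change 7.42 ± 0.89, adjusted p = 5.99e-05). Slc39a14, a zinc and iron importer, rose from 16.3, 17.1, 18.4 and 20.5 CPM to 56.5, 579, 1520.3 and 1154 CPM (log2 fold change 5.52 ± 0.85, adjusted p = 0.000248). Replicate 1 was the lowest of the 4 tumour libraries in all 3 genes and lay above every sham library. Of 20 zinc genes 6 rose and 4 fell, shares close to the 28.1% and 23.9% of all genes. The count of falls was 1 without sham replicate 1 or 3 or splenic C26 replicate 4 and 2 without splenic C26 replicate 3. The zinc exporter gene Slc30a1 fell by 0.68 ± 0.26, a call lost without sham replicate 1, 2 or 3 or splenic C26 replicate 2, 3 or 4 (adjusted p 0.054 to 0.0922). Of 20 iron genes 6 rose and 6 fell, also close to the shares of all genes. Beside Tfrc, Steap3, the reductase that works with it, fell from 57.1, 63.6, 60.3 and 64.3 CPM to 36.3, 14.2, 7.9 and 7.84 CPM (log2 fold change -1.88 ± 0.41, adjusted p = 0.00191). The ferritin genes Ftl1 and Fth1 rose by 0.78 ± 0.17 and 0.64 ± 0.18, and the exporter gene Slc40a1 did not pass (0.23 ± 0.34). Of 36 antioxidant genes 22 rose and 3 fell (5 with upper-quartile scaling). Gpx3, a secreted glutathione peroxidase, rose from 429, 481, 470.1 and 399 CPM to 1308, 1779, 1482 and 2289 CPM (log2 fold change 1.95 ± 0.20, adjusted p = 1.94e-05). Gsr, which recycles glutathione, rose by 1.58 ± 0.21. Hmox1, which degrades haem, rose by 1.96 ± 0.36, and the factor gene Nfe2l2 by 0.98 ± 0.14. Gclc, the first step of glutathione synthesis, rose by 0.62 ± 0.14. Nfe2l1 did not pass (0.37 ± 0.19), and did without splenic C26 replicate 1 (adjusted p = 0.0198).

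Genes of IL-6 signalling, acute-phase proteins and glucocorticoid-induced genes rose. Socs3, which damps STAT3 signalling, stood at 3.86, 3.79, 4.53 and 4.8 CPM in sham and 40.0, 113, 164 and 192 CPM in splenic C26 (log2 fold change 4.90 ± 0.45, adjusted p = 1.03e-05). Il6ra, the IL-6 receptor chain, stood at 8.03, 9.07, 7.07 and 8.44 CPM and 74.9, 136, 169 and 119.8 CPM (log2 fold change 3.94 ± 0.35, adjusted p = 8.8e-06). Osmr, the oncostatin receptor, stood at 10.4, 10.1, 8.36 and 8.61 CPM and 34.8, 29, 32.3 and 44 CPM (log2 fold change 1.90 ± 0.22, adjusted p = 4.78e-05). The groups did not overlap in any of the 3. Stat3, the factor that carries the signal, rose by 2.498 ± 0.26. Of 24 genes of this list 13 rose and 3 fell, the latter being Lifr (-1.25 ± 0.25) and Cntfr (-2.02 ± 0.47), receptors of related cytokines, and Socs1 (-2.109 ± 0.47), and 5 fell without splenic C26 replicate 1 or with upper-quartile scaling. Of 23 acute-phase genes 17 rose and 0 fell, among them the protease inhibitor gene Serpina3n, from 6.73, 11.4, 4.9 and 6.82 CPM to 89.8, 319, 454 and 1298 CPM (log2 fold change 6.18 ± 0.84, adjusted p = 0.000125). Several were near 0 in sham and so were listed only through other groups, which may include the tumour-free Control group. Without splenic C26 replicate 1, 13 rose and 1 fell, and limma-voom called 11 higher. The mean level of the list over sham was 2.75, 2.58, 3.20 and 3.70 log2 in splenic C26 replicates 1 to 4, beside 5.10, 0.73, -0.13 and 0.01 log2 for hepatocyte and 1.17, 1.39, 6.21 and 2.78 log2 for neutrophil markers. Liver cells make many acute-phase proteins and neutrophils hold Lcn2, a member of the list, and the part of either cell type in these values was not tested. Of 24 glucocorticoid-induced genes 18 rose and 0 fell, beside 28.1% and 23.9% of all genes. Without overlap 18 lay above sham, beside 21.1% of all genes, and the median was 2.302. The list was chosen with earlier results of these data known. It shares Lcn2, Mt2 and Cebpd with other lists, and a response to glucocorticoids was not tested. Fkbp5, a chaperone of the receptor, rose from 49.6, 32.9, 25.2 and 45.7 CPM to 216, 482, 790.4 and 772 CPM (log2 fold change 3.88 ± 0.45, adjusted p = 5.38e-05). The atrophy factor Foxo1 rose by 2.52 ± 0.26. Foxo3 rose by 1.45 ± 0.18, and Cebpd, in which sham replicate 1 was high at 55.9 CPM, by 3.74 ± 0.62. Sesn1, a stress-induced mTOR inhibitor, rose by 2.91 ± 0.37.

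Of 28 NF-kB genes 17 rose and 3 fell (5 with upper-quartile scaling), beside 28.1% and 23.9% of all genes. The TWEAK receptor gene Tnfrsf12a stood at 14.1, 41.7, 176 and 102 CPM in splenic C26 against 6.8, 9.07, 9.53 and 13.3 CPM in sham (log2 fold change 3.10 ± 0.57, adjusted p = 0.000685). The ectodysplasin receptor gene Eda2r stood at 71, 60.6, 23.3 and 10.9 CPM against 15.2, 11.9, 17.6 and 13.5 CPM (log2 fold change 1.51 ± 0.43, adjusted p = 0.00929). Eda2r was high in replicates 1 and 2 and below sham in replicate 4, while Tnfrsf12a was highest in replicate 3. Nfkbia, the inhibitor that NF-kB induces, rose by 1.54 ± 0.37. Of 56 interferon-stimulated genes 32 fell and 5 rose, beside 23.9% and 28.1% of all genes, with a median of -0.91. Sham replicate 1 was high in them. Their mean level over sham was 0.68, -0.07, -0.34 and -0.27 log2 in sham replicates 1 to 4. In splenic C26 replicates 1 to 4 it was -0.33, -0.97, -1.14 and -0.67 log2, so splenic C26 replicate 1 lay within the sham range. Without sham replicate 1, 20 fell and 5 rose, and in the fit of 8 libraries 21 fell. Usp18, which limits interferon signalling, fell from 2.02, 1.69, 2.06 and 2.64 CPM to 0.766, 0.794, 0.705 and 0.621 CPM (log2 fold change -1.53 ± 0.26, adjusted p = 0.000426). Xaf1 fell by 1.29 ± 0.26. The chemokine gene Cxcl13 rose from 0.615, 1.22, 0.268 and 1.06 CPM to 13.1, 16.9, 20.3 and 45.6 CPM (log2 fold change 4.93 ± 0.73, adjusted p = 0.000199). Apln, a secreted peptide of muscle and vessels, fell from 1.67, 2.07, 2.143 and 1.75 CPM to 0.223, 0, 0 and 0 CPM and was at 0 in 3 tumour libraries. The eosinophil chemokine gene Ccl11 fell by 1.06 ± 0.34, a call lost without splenic C26 replicate 4 (adjusted p = 0.052), and Fndc5, the precursor of irisin, by 1.17 ± 0.38.

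In the myostatin, activin and BMP list 12 of 44 genes rose and 12 fell, shares close to the 28.1% and 23.9% of all genes. Inhbb, a chain of activin B, stood at 7.95, 5.85, 43.6 and 42.9 CPM in splenic C26 against 1.43, 4.62, 1.45 and 3.43 CPM in sham (log2 fold change 3.19 ± 0.65, adjusted p = 0.00126). The BMP antagonist gene Nog stood at 16.4, 18.2, 22.8 and 20.8 CPM against 4.65, 5.07, 5.76 and 7.03 CPM (log2 fold change 1.80 ± 0.18, adjusted p = 1.92e-05). Tgif1, a corepressor of Smad signalling, stood at 27.5, 33.5, 166 and 95.6 CPM against 5.16, 5.96, 5.6 and 7.34 CPM (log2 fold change 3.74 ± 0.47, adjusted p = 7.78e-05). Nog moved evenly in all 4 tumour libraries, Inhbb and Tgif1 most in replicates 3 and 4. Gdf11, a ligand close to myostatin, fell by 3.12 ± 0.54. The ligand Mstn (0.44 ± 0.25), the receptor Acvr2b (-0.35 ± 0.26), the antagonist Fst (-0.66 ± 0.31), Smad3 (0.18 ± 0.76) and Id1 (0.31 ± 0.21) did not pass, and Mstn passed as higher without splenic C26 replicate 2 (0.66, adjusted p = 0.0154). Without splenic C26 replicate 1 Acvr2b (adjusted p = 0.0482) and Fst (adjusted p = 0.0371) passed as lower. Of 40 insulin and mTOR genes 19 rose and 7 fell. Igfbp5, the main IGF-binding protein of muscle, fell from 1568, 1574, 2068 and 1783 CPM to 377, 70.0, 82.2 and 49.6 CPM (log2 fold change -3.60 ± 0.86, adjusted p = 0.00344). Irs2, an insulin receptor substrate, rose from 24.1, 28.7, 24.4 and 35.5 CPM to 75.2, 81.4, 172 and 178 CPM (log2 fold change 2.17 ± 0.28, adjusted p = 8.22e-05). Igf1 did not pass (-0.56 ± 0.24), and passed as lower without sham replicate 1 (adjusted p = 0.0436) or splenic C26 replicate 4 (adjusted p = 0.0482).

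**Figure D4:**
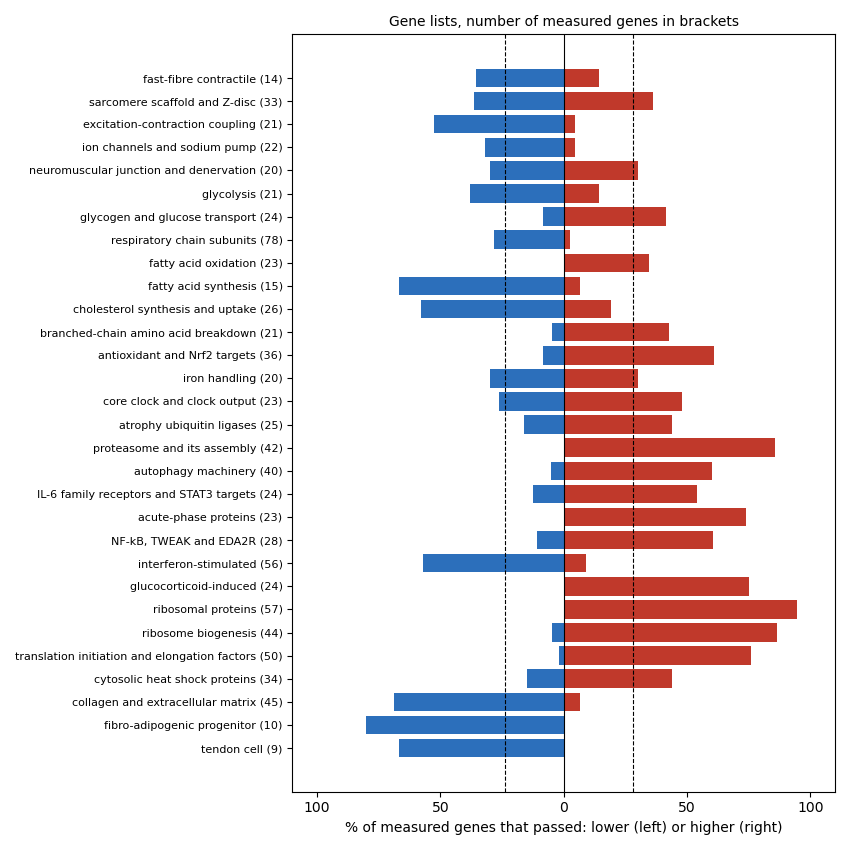
For 30 of the gene lists, the percentage of measured genes that passed as higher (right) or lower (left) in splenic C26, with dashed lines at the 28.1% and 23.9% of all genes. Ribosomal, proteasome and ribosome biogenesis genes extend far past the line on the higher side, and collagen, tendon and interferon-stimulated genes on the lower side.

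Genes of the machinery that makes proteins and of the machinery that breaks them down both rose. Of 57 ribosomal protein genes 54 rose, of 44 ribosome biogenesis genes 38 rose and 2 fell, and of 50 translation factors 38 rose and 1 fell. Over all genes 28.1% rose and 23.9% fell. Eif3a, a scaffold of the initiation complex, rose from 218, 204, 228 and 236 CPM to 369.8, 828, 1255 and 1327 CPM (log2 fold change 2.09 ± 0.32, adjusted p = 0.000232). Eif4ebp1, which represses initiation, rose from 38.5, 40.7, 38 and 33 CPM to 161, 581, 595 and 601 CPM (log2 fold change 3.69 ± 0.40, adjusted p = 3.14e-05). Rpl3 rose from 26.3, 41.1, 28.3 and 28.9 CPM to 44.8, 61.2, 84.6 and 112 CPM (log2 fold change 1.28 ± 0.32, adjusted p = 0.00501), and its muscle form Rpl3l stood at 424, 351, 406 and 439.6 CPM and 316, 329, 329.8 and 253 CPM and did not pass (log2 fold change -0.40 ± 0.23, adjusted p = 0.152), passing as lower with upper-quartile scaling. Myc, which drives ribosome genes, rose by 2.23 ± 0.23 and nucleolin, Ncl, by 1.30 ± 0.21. The elongation factor genes Eef1a1 (0.47 ± 0.29) and Eef1a2 (0.38 ± 0.18) did not pass, and Eef1a2 did without splenic C26 replicate 1 (adjusted p = 0.00992). Ribosomal protein genes have near-identical copies in the genome, so their counts are uncertain. Of 22 tRNA synthetase genes 14 rose, and the 1 that fell, Aimp2, a scaffold of the synthetase complex, dropped from 177, 200.5, 211 and 226 CPM to 55.7, 37.5, 32.8 and 19.2 CPM (log2 fold change -2.49 ± 0.27, adjusted p = 3.14e-05).

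On the side of breakdown, 36 of 42 proteasome genes rose and 0 fell, with a median of 1.14, and 32 rose and 3 fell with upper-quartile scaling and 2 fell without splenic C26 replicate 1. Psma7, a core subunit, rose from 76.8, 73.6, 73.4 and 83.5 CPM to 129.9, 384, 441 and 476 CPM (log2 fold change 2.22 ± 0.32, adjusted p = 0.000157). The mean proteasome level over sham was 0.30, 1.14, 1.25 and 1.29 log2 in splenic C26 replicates 1 to 4, and the mean ribosomal protein level 0.12, 0.71, 0.94 and 0.94 log2, so replicate 1 was the lowest in both. The polyubiquitin gene Ubb rose by 2.27 ± 0.24. Of 25 ligases 11 rose and 4 fell, beside 28.1% and 23.9% of all genes. Fbxo31 rose from 160.4, 128, 138 and 168 CPM to 331, 1220.1, 814 and 1222 CPM (log2 fold change 2.59 ± 0.37, adjusted p = 0.000158). Trim55, a relative of MuRF1, fell by 1.16 ± 0.27. Of 40 autophagy genes 24 rose and 2 fell (4 without splenic C26 replicate 2 and 6 with upper-quartile scaling), with the kinase gene Ulk1 at 121, 102, 118 and 133 CPM in sham and 333, 314, 359 and 363 CPM in splenic C26 (log2 fold change 1.53 ± 0.19, adjusted p = 7.36e-05), a step of similar size in all 4 libraries. The lysosomal cholesterol exporter gene Npc1 rose by 2.65 ± 0.32 and the protease gene Ctsl by 2.58 ± 0.38. The muscle calpain gene Capn3 did not pass (-0.31 ± 0.26).

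**Figure D5:**
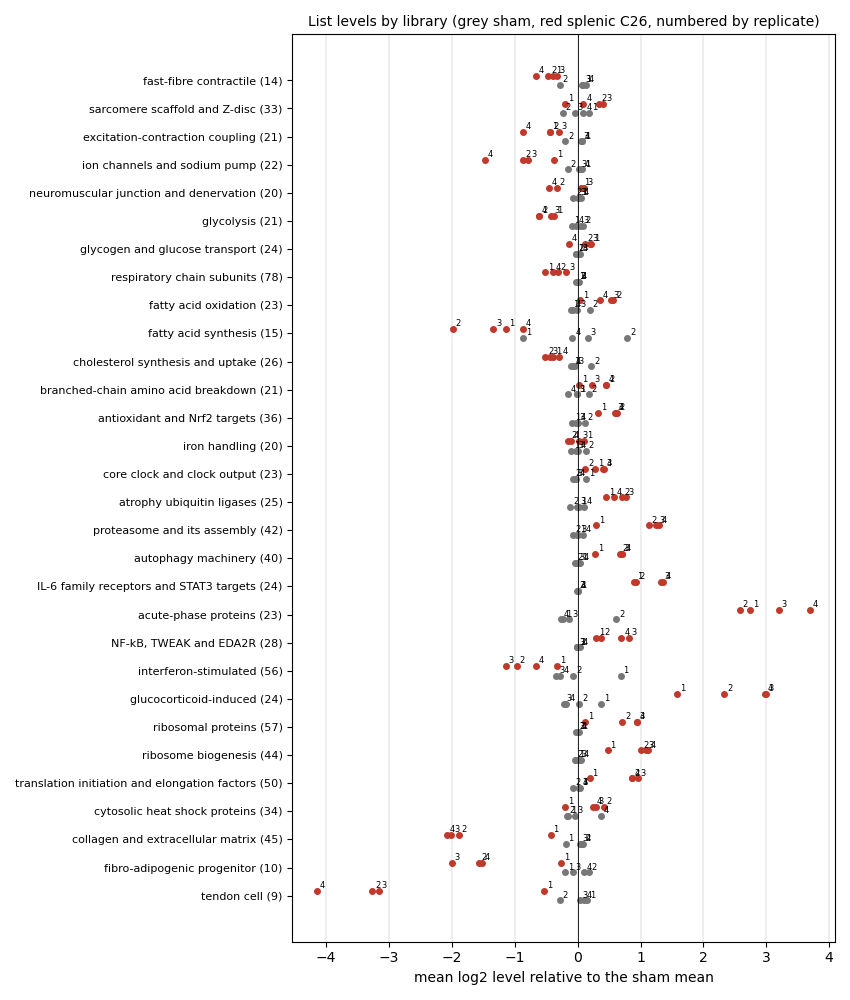
Mean log2 level of 30 gene lists in each library relative to the sham mean, with sham libraries in grey and splenic C26 libraries in colour, numbered by replicate. Splenic C26 replicate 1 lies between sham and the other 3 libraries for the proteasome, ribosomal and collagen lists.

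Stress genes moved in both directions. Of 28 ATF4-linked genes 10 rose and 8 fell, not far from the 28.1% and 23.9% of all genes. Without sham replicate 4, 6 rose and 7 fell. Atf4 itself rose from 169, 160.5, 187 and 198 CPM to 265, 388, 616 and 406 CPM (log2 fold change 1.23 ± 0.20, adjusted p = 0.000279). Ppp1r15a, which restores translation, rose from 19.7, 21.2, 21.2 and 22.9 CPM to 58.1, 109, 258 and 194 CPM (log2 fold change 2.87 ± 0.37, adjusted p = 8.22e-05). The stress factor gene Ddit3 fell by 0.86 ± 0.14. Psph, a step of serine synthesis, fell by 1.68 ± 0.33, and Asns (0.31 ± 0.46) and Psat1 (0.28 ± 0.33) did not pass. Trib3, a target of ATF4, rose by 1.01 ± 0.38, a call lost without sham replicate 1, 3 or 4 or splenic C26 replicate 3 or 4 (adjusted p 0.0576 to 0.15), and Phgdh, the first step of serine synthesis, fell by 1.44 ± 0.48, a call lost without sham replicate 2 or splenic C26 replicate 2 (adjusted p 0.0585 to 0.0947). Of 26 reticulum stress genes 11 rose and 0 fell, with the chaperone gene Hspa5 at 0.75 ± 0.21. Of 34 heat shock genes 15 rose and 5 fell, or 3 without sham replicate 4 or splenic C26 replicate 3 or 4 and 8 with upper-quartile scaling. Hspb7, a small chaperone of striated muscle, stood at 359, 2148, 2067 and 2651 CPM in splenic C26 against 332, 247, 181 and 256 CPM in sham (log2 fold change 2.83 ± 0.49, adjusted p = 0.000439). Hspb1 rose by 2.49 ± 0.50, and the muscle chaperone gene Hspb3 fell from 20.02, 20.8, 20.5 and 23.8 CPM to 9.89, 4.48, 3.29 and 1.82 CPM (log2 fold change -2.12 ± 0.46, adjusted p = 0.00195). Hspa1a (-1.78 ± 1.03) and Hspa8 (0.36 ± 0.24) did not pass. Bag3, which guides damaged filaments to autophagy, rose by 1.23 ± 0.30, and the chaperonin subunit gene Cct2 by 1.19 ± 0.21. Cdkn1a, a cell cycle inhibitor that rises under stress, stood at 56.8, 184, 865 and 449 CPM in splenic C26 against 18.7, 16.9, 14.4 and 17.4 CPM in sham (log2 fold change 4.53 ± 0.65, adjusted p = 0.000165). Ddit4, an mTOR inhibitor, stood at 70.5, 191, 314 and 258 CPM against 25.3, 6.13, 3.37 and 2.74 CPM (log2 fold change 4.47 ± 0.89, adjusted p = 0.00115), where sham replicate 1 was the highest of its group. The immediate early gene Fos rose by 2.91 ± 0.76, and by 1.27 without splenic C26 replicate 4, where it stood at 89.8 CPM, and Klf10 by 1.57 ± 0.18. Hif1a, the hypoxia factor, rose by 0.62 ± 0.15. Vegfa rose by 0.65 ± 0.26, a call lost without sham replicate 1, 2, 3 or 4 or splenic C26 replicate 3 or 4 (adjusted p 0.0775 to 0.277), with a change of 0.27 without splenic C26 replicate 3, and Cyp26b1, which degrades retinoic acid, did not pass (0.30 ± 0.38).

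Of 23 clock genes 11 rose and 6 fell, beside 28.1% and 23.9% of all genes. Arntl, which encodes the positive factor BMAL1, rose from 9.16, 13.8, 16 and 14.1 CPM to 22.8, 47.2, 119.96 and 73 CPM (log2 fold change 2.31 ± 0.37, adjusted p = 0.000312). Nfil3, a repressor of output genes, rose from 21.8, 19.7, 21.1 and 32 CPM to 87.4, 109, 310.4 and 157 CPM (log2 fold change 2.81 ± 0.33, adjusted p = 4.89e-05). Of the output factor genes that it opposes, Dbp fell from 125, 107, 95.2 and 104 CPM to 22.8, 7.08, 7.29 and 7.57 CPM (log2 fold change -3.26 ± 0.37, adjusted p = 4.22e-05). Hlf fell by 2.19 ± 0.32, while Tef (0.05 ± 0.12) and Ciart (0.37 ± 0.48) did not pass. The period genes Per1 and Per2, repressors of the loop, rose by 1.93 ± 0.39 and 1.11 ± 0.27. Nr1d1, a repressor of Arntl, fell by 0.76 ± 0.21. The labels give no hour of tissue collection.

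Collagen and other matrix genes fell. Of 45 matrix genes 31 fell and 3 rose, beside 23.9% and 28.1% of all genes, with a median of -1.51. Col3a1, a fibrillar collagen, stood at 473, 651, 739 and 701 CPM in sham and 264, 63.6, 17.3 and 23.8 CPM in splenic C26 (log2 fold change -2.80 ± 0.73, adjusted p = 0.00585). Col1a1 stood at 256, 299, 346 and 382 CPM and 161, 34, 29.3 and 11.3 CPM (log2 fold change -2.44 ± 0.65, adjusted p = 0.00656); without splenic C26 replicate 1 Col1a1 changed by -3.68. Lox, which cross-links collagen, rose instead, from 21.4, 21.7, 20.7 and 19.1 CPM to 47.9, 27.6, 50.7 and 70.4 CPM (log2 fold change 1.25 ± 0.29, adjusted p = 0.00263), and so did the collagen-cutting Mmp3 (2.94 ± 0.43) and Timp1 (1.89 ± 0.42), an inhibitor of such proteases. The membrane protease gene Mmp14 rose by 0.81 ± 0.28, a call lost without sham replicate 1 or 4 or splenic C26 replicate 4 (adjusted p 0.0592 to 0.0918), and Adamts1 by 0.80 ± 0.28, a call lost without sham replicate 1, 2 or 3 or splenic C26 replicate 3 or 4 (adjusted p 0.0594 to 0.108). Markers of the cells that make matrix fell with it: 8 of 10 of fibro-adipogenic progenitors, with Cd248 at 26.6, 39.1, 34 and 48.1 CPM in sham and 17, 4.22, 1.32 and 2.17 CPM in splenic C26 (log2 fold change -2.56 ± 0.59, adjusted p = 0.00272), and 6 of 9 of tendon cells, of which 2 or 3 remained without any 1 of the sham replicates 1, 3 and 4 or splenic C26 replicates 2, 3 and 4. Tnmd, a tendon protein, fell from 11.9, 9.45, 10.6 and 8.61 CPM to 5.68, 0.469, 0.47 and 0.505 CPM (log2 fold change -2.48 ± 0.74, adjusted p = 0.0119), and by more without splenic C26 replicate 1 (-4.38). The progenitor receptor gene Pdgfra fell by 0.84 ± 0.33, a call lost without sham replicate 1, 2, 3 or 4 or splenic C26 replicate 2, 3 or 4 (adjusted p 0.0638 to 0.125), and by more without splenic C26 replicate 1 (-1.32).

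Other cell types moved unevenly, beside 28.1% of all genes that rose and 23.9% that fell. Of 11 pericyte and smooth muscle markers 1 rose and 4 fell, with a median of -0.44. Of 9 Schwann cell markers 0 rose and 3 fell, with a median of -0.53. Of 12 endothelial markers 8 rose and 1 fell, with 5 higher without sham replicate 4, 3 with upper-quartile scaling and 4 without splenic C26 replicates 1 and 3. Esam, a junction protein of vessels, rose from 14.6, 15.6, 12.8 and 12 CPM to 33.9, 25.4, 28.6 and 37.1 CPM (log2 fold change 1.18 ± 0.15, adjusted p = 6.44e-05). Pecam1 rose by 0.71 ± 0.17, Cdh5 did not pass (0.20 ± 0.17; adjusted p = 0.036 without splenic C26 replicate 2), and Kdr, a VEGF receptor, fell from 46.9, 58, 63 and 49.4 CPM to 31.1, 16.6, 22.3 and 19.5 CPM (log2 fold change -1.28 ± 0.17, adjusted p = 0.000105). Of 16 macrophage markers 2 rose and 1 fell, and without splenic C26 replicate 1, 4 fell. Cd68 stood at 9.51, 7.58, 53.9 and 75.5 CPM in splenic C26 against 7.04, 7.35, 6.27 and 9.46 CPM in sham, highest in replicates 3 and 4. The mean level of the 16 markers over sham was 0.56, -0.56, -0.48 and -0.15 log2 in splenic C26 replicates 1 to 4. In replicates 3 and 4 the list thus lay below the sham mean, unlike Cd68. Mki67, a marker of dividing cells, stood at 1.24, 0.469, 7.8 and 0.388 CPM in splenic C26 against 1.4, 1.51, 0.991 and 1.65 CPM in sham and did not pass.

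The effect of the splenic route was set against that of the tumour under the skin by the difference of the log2 changes, each over its own tumour-free group. Library titles of Sham and splenic C26 share a prefix, and those of Control and Subcutaneous C26 share another. Its meaning is not given here, so the route cannot be told apart from it. No gene passed in either direction (0% of 13320 with edgeR, smallest adjusted p = 0.067). An unadjusted p under 0.05 was held by 851 genes, where about 1 gene in 20 would hold it if none differed. DESeq2 called 86, limma-voom 0 and limma-trend 0, and without splenic C26 replicate 2 edgeR called 66. The rule for naming genes of this test requires a gene that passes and so named none. The genes set side by side here were not picked by it. All of them had the larger change in the splenic comparison, and they do not stand for all genes. Tfrc changed by -3.92 in the splenic and -3.01 in the subcutaneous comparison, Ankrd1 by 5.87 and 2.47, Myog by 3.08 and 1.25, and Cldn5, a tight junction gene of vessels, by 2.28 and -0.09. The differences were -0.91 ± 0.37 for Tfrc, 3.40 ± 1.33 for Ankrd1, 1.83 ± 0.94 for Myog and 2.37 ± 0.51 for Cldn5, and a missed threshold does not show that the routes act alike. Respiratory chain genes fell in 22 of 78 cases in the splenic and 65 in the subcutaneous comparison, and none of them passed the test of the difference. Their median changes were -0.37 and -0.66.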

How the data were processed

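Paired-end RNA-seq was made from quadriceps of male CD2F1 mice, 4 libraries each of splenic C26, Sham, Subcutaneous C26 and Control. The authors deposited raw counts per gene, aligned with STAR and counted with featureCounts per the labels, on the mm10 build per the submitters' processing notes, and a second deposited table of log2 normalized values, whose making is not given in the sources used here and which entered 1 alternative only. The tool versions, annotation and strandedness were not given in the sources used here. Reads shared by overlapping, antisense or near-identical genes cannot be told apart. The count table holds 13320 named genes and 4013 lines without a symbol or values, which were dropped. All named genes had at least 0.5 CPM in at least 4 of the 16 libraries, so filterByExpr removed 0 genes and a fit with no filter is the same fit.

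Counts of all 16 libraries were fitted with edgeR 4.0.16 in R 4.3.3 (TMM factors, robust quasi-likelihood fit, no covariate), and p-values were Benjamini-Hochberg adjusted over all genes. The fit was tested on simulated data. Splenic C26 was compared with Sham, and its effect with that of the subcutaneous tumour. The total count was 25.9 to 34.9 M per library. No pair of libraries agreed within sampling noise (chi-square per degree of freedom of at least 13.0 within groups). The alternatives were other scaling factors, filters, thresholds and tools (DESeq2 1.42.0, limma 3.58.1), a fit of 8 libraries, and leaving libraries out. Promoter sequences come from RefSeq (GRCm38.p6).

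The comparison and the gene lists were chosen with earlier results of these data known. Most genes were named by a rule: a fixed list of genes, in each gene list those with the smallest p in each direction, the 10 highest and lowest changes, the 10 smallest p-values and the 5 most abundant genes. Chrng and Amd1 of the fixed list were not analysed here, and some of its other genes are not reported here. Ankrd2, Apob, Chrnb1, Chrne, Esrra, Fasn, Fbxo31, Inhbb, Jph2, Pkm, Pnpla2, Psma1, Psma7, Psmd1, Psph, Slc7a2, Stac3, Ulk1 and Xirp1 were chosen after their values were seen.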

Additional observations from a re-analysis of the deposited data

Results flagged for a closer look

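In a group of 4 libraries, 1 library was taken as standing apart where its gap to the nearest other as a share of the group's range exceeded Dixon's critical value, on the scale of log2(CPM + 0.1) for genes and of the mean log2 level for gene lists. Chance gives about 1 such case in 20 groups. Over the named genes in both groups there were 34 cases in 478 groups, and over the gene lists 12 in 140.

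Splenic C26 replicate 1 stood apart as high in Apln (0.223 CPM), Apob (3.61 CPM), Cyp26b1 (4.56 CPM), Dbp (22.8 CPM), Id1 (15.9 CPM), Srebf1 (52.4 CPM) and Tnmd (5.68 CPM). Splenic C26 replicate 1 stood apart as low in Acot1 (9.67 CPM), Cct2 (127 CPM), Eif4ebp1 (161 CPM), Hspb7 (359 CPM), Klf15 (112 CPM), Psma7 (129.9 CPM) and Psmd1 (275 CPM). Splenic C26 replicate 3 stood apart as high in Mpo (8.51 CPM) and Ppargc1a (638 CPM). Splenic C26 replicate 4 stood apart as high in Asns (8.62 CPM) and Fos (89.8 CPM). Splenic C26 replicate 4 stood apart as low in Ndufc2 (42.2 CPM) and Rpl3l (253 CPM). In mean level over sham, splenic C26 replicate 1 was high for collagen and extracellular matrix genes (-0.43 log2) and hepatocyte genes (5.10 log2). In mean level over sham, splenic C26 replicate 1 was low for antioxidant and Nrf2 targets genes (0.33 log2), proteasome and its assembly genes (0.30 log2), autophagy machinery genes (0.28 log2) and translation initiation and elongation factors genes (0.19 log2). In mean level over sham, splenic C26 replicate 2 was low for epithelial and tumour cell genes (-1.29 log2). Most cases of replicate 1 are values between sham and the other 3 libraries. The hepatocyte markers, Apob, Cyp26b1 and Id1 instead lay above all sham and all other tumour libraries in replicate 1.

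Sham replicate 1 stood apart as high in Ciart (13.9 CPM). Sham replicate 2 stood apart as high in Aldh8a1 (0.0593 CPM), Ccl11 (34.6 CPM), Eef1a1 (814 CPM) and Pdgfra (58.6 CPM). Sham replicate 2 stood apart as low in Atp2a1 (26597 CPM), Cs (998 CPM), Ldha (1811 CPM), Myh4 (42121 CPM) and Tnnt3 (13191 CPM). Sham replicate 4 stood apart as high in Bag3 (231 CPM), Hspb1 (123 CPM), Lmod3 (219 CPM) and Ngp (0.0343 CPM). In mean level over sham, sham replicate 1 was low for endoplasmic reticulum unfolded protein response genes (-0.12 log2). In mean level over sham, sham replicate 2 was high for acute-phase proteins genes (0.62 log2). In mean level over sham, sham replicate 2 was low for fast-fibre contractile genes (-0.28 log2), excitation-contraction coupling genes (-0.20 log2) and translation initiation and elongation factors genes (-0.081 log2).

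The test of a different effect between the routes passed for no gene with edgeR (0 of 13320, with 851 at an unadjusted p under 0.05, 86 with DESeq2 and 0 with limma-voom).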

How the results depend on the processing

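The count of genes higher in splenic C26 (3745) ranged from 2708 with an adjusted p under 0.01 to 3951 with DESeq2, and from 3266 to 4158 with 1 library left out. The count of lower genes (3186) was 1700 with an adjusted p under 0.01, 4384 with upper-quartile factors, and 2467 (without splenic C26 replicate 4) to 4043 (without splenic C26 replicate 1) with 1 library left out. Genes at least 2-fold higher (1565) numbered 1321 to 1881 and at least 2-fold lower (1706) 1330 to 2478 with 1 library left out. Of the calls 54.0% were higher, against 38.5% with upper-quartile factors and 50.7% to 57.1% with 1 library left out. Upper-quartile factors moved the median change of all genes to -0.24, and the cause was not tested. Genes whose effect differed between routes numbered 0, against 86 with DESeq2, 1 without splenic C26 replicates 1 and 3, and 0 to 66 with 1 library left out (66 without splenic C26 replicate 2). Among the named genes, Alb reversed without splenic C26 replicate 1 (-1.83) and without splenic C26 replicates 1 and 3 (-3.72), Apob (4.76 with all libraries) without the same libraries (-3.06 and -3.08), and Ppargc1a without splenic C26 replicate 3 (-0.0083). With 1 library left out, Alb ranged from -1.83 to 6.05, Apob from -3.06 to 5.26 and Ppargc1a from -0.0083 to 2.21. With upper-quartile factors calls were lost, among others, for Adamts1 (adjusted p = 0.0846), Mmp14 (adjusted p = 0.0858), Ppargc1a (adjusted p = 0.0537), Slc2a4 (adjusted p = 0.236), Trib3 (adjusted p = 0.088) and Vegfa (adjusted p = 0.154), and gained as lower for Fst (adjusted p = 0.0385) and Igf1 (adjusted p = 0.0149). In the fit of 8 libraries they were lost, among others, for Alb (adjusted p = 0.0874), Hk2 (adjusted p = 0.0591), Pdgfra (adjusted p = 0.0607), Slc30a1 (adjusted p = 0.0833) and Smox (adjusted p = 0.0685). With limma-voom they were lost, among others, for Alb (adjusted p = 0.79), Hk2 (adjusted p = 0.0723), Otop1 (adjusted p = 0.0812), S100a8 (adjusted p = 0.0867) and Saa3 (adjusted p = 0.0863). Without splenic C26 replicates 1 and 3 they were lost, among others, for Fndc5 (adjusted p = 0.0775) and Scd1 (adjusted p = 0.0518). The fit with no filter is the same fit, since the deposited table was already filtered, and says nothing about stability. No paired analysis was possible because the labels give no replicate numbers. Depth of 25.9 to 34.9 M counts limits genes near 0.5 CPM most, and 4 libraries a group limit all tests.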
